A study of Mus musculus with 19 samples.

Results

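The genes described here mark the cells of brain blood vessels. They were 10 genes of the 41128 in the deposited count table, chosen by GENCODE M21 gene name: *Cldn5*, *Pecam1*, *Cdh5*, *Flt1*, *Tek*, *Slco1a4*, *Abcb1a*, *Ly6a* and *Ly6c1*, which label endothelial cells, and *Pdgfrb*, which labels pericytes. All 10 passed the filter on low counts that left 16841 genes for testing. Each was compared between knock-in (KI) mice, a model of spinocerebellar ataxia 17 (SCA17), and wild-type (WT) controls in each brain region. *Ly6a* and *Ly6c1*, which respond to interferon, were set against the other 8.

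The mice were C57BL/6 animals aged 3 months. KI mice carried an expanded polyglutamine stretch in TBP, the TATA box-binding protein, as a germline allele, and WT mice of the same age were the controls. The methods describe the line as floxed heterozygous TBP mice crossed first to EIIa-Cre, a transgene active in the early embryo, and then to WT mice. The cerebellum (CB) gave 4 KI and 3 WT libraries, and the striatum (STR) and prefrontal cortex (PFC) gave 3 of each genotype, 19 libraries in all. Both sexes were used. The labels do not say which libraries share an animal.

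Endothelial cells line every vessel, and in the brain they form the blood-brain barrier: tight and adherens junctions seal the gaps between them, and transport proteins decide what crosses. Pericytes sit on the outside of capillaries and are kept there by growth factor signals from the endothelium. *Ly6a* (Sca-1) and *Ly6c1* encode small surface proteins held by a lipid anchor. Mouse brain endothelium carries both, and interferon is known to raise *Ly6a* in many cell types.

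In these bulk RNA libraries, fewer vascular cells and less RNA per cell cannot be told apart. All 27 genes of a wider endothelial and blood-brain barrier list and all 16 of a mural list (pericytes and smooth muscle) passed the filter, and none of them was at 0 throughout a group. Library totals lay between 10639110 and 17431284 reads, and each member had between 65 (*Cdh5*) and 1746 (*Slco1a4*) reads in a library. CPM below is a count scaled to library size, with TMM factors. Choroid plexus genes summed to 1575 to 9094 CPM in the 6 striatal libraries, to 2002 in CB WT 1, to 5022 in CB KI 3 and to at most 53.9 in the others. CB KI 2, STR WT 1 and PFC WT 1 stood apart in reads of *Ly6c2*. The differences of *Ly6a* and *Ly6c1* between genotypes are given with and without them. Scores per library and results that take sex into account include them. *Tbp* was at 32.0 to 62.0 CPM in all libraries, which cannot check the labels because a count does not separate the expanded allele.

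*Ly6c1* and its neighbour *Ly6c2* on chromosome 15 are shown because they are so alike, which bears on how reads were divided among the Ly6 genes. Their coding sequences, both 393 bases long, were 97.7% identical, and that of *Ly6a* (402 bases) was 81.8% identical to *Ly6c1* and 81.6% to *Ly6c2*. The first 120 coding bases hold 6 differences, shown in capitals (GENCODE M21 transcripts, GRCm38, minus strand, *Ly6c1* at chr15:75047420-75048511 and *Ly6c2* at chr15:75110578-75111667, both spanning an intron).
Ly6c1: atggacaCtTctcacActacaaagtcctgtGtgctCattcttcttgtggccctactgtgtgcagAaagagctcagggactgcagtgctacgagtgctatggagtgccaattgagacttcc
Ly6c2: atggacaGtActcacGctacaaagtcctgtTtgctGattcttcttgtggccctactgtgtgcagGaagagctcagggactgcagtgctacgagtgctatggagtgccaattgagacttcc

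Of all 50-base windows in its annotated transcripts, *Ly6c1* shared 32.8% with transcripts of other genes on the same strand, most of them with *Ly6c2* (379 windows) and *Ly6a* (195 windows). *Ly6a* shared 19.0% of its windows, and *Abcb1a* shared 17.6%, most with its paralog *Abcb1b* (889 windows). A further 8.37% of the *Abcb1a* windows matched *Gm42686* on the opposite strand (457 windows), and whether the counting used strand is not given in the sources used here. *Slco1a4* shared 1.61%, *Pecam1* 1.00% and *Flt1* 0.110%, and *Cldn5*, *Cdh5*, *Tek* and *Pdgfrb* shared none. How the counting treated reads that match several genes is not given in the sources used here, so the levels of *Ly6a*, *Ly6c1* and *Abcb1a* are uncertain to that extent.

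Promoters of the members were searched because interferon acts through short DNA elements. RefSeq promoters (GRCm38.p6, 250 bases before the start) were matched for 6 of the 10: *Cldn5*, *Flt1*, *Tek*, *Slco1a4*, *Abcb1a* and *Ly6c1*. The window of *Abcb1a* (chr5:8566841-8567090, plus strand) lay far upstream of the GENCODE start of that gene, 8660077. *Cldn5* is shown for the junction genes, *Flt1* for the receptors and *Ly6c1*, at the outer of its 2 starts, for the Ly6 genes. Capitals mark GGGCGG (the GC box) and TATAAA (the TATA box), on either strand.
Cldn5 (chr16:18776597-18776846, plus strand): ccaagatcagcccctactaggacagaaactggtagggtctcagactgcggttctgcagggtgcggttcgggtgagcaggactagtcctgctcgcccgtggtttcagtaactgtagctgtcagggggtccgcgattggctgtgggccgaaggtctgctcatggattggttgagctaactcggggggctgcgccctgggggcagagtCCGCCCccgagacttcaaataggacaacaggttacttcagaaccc
Flt1 (chr5:147726012-147726261, minus strand): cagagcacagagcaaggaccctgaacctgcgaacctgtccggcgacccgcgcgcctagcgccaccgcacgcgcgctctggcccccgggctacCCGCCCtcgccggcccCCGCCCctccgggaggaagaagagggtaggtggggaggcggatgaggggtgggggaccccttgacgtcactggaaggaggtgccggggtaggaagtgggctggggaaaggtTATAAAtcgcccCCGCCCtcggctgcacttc
Ly6c1 (chr15:75048838-75049087, minus strand): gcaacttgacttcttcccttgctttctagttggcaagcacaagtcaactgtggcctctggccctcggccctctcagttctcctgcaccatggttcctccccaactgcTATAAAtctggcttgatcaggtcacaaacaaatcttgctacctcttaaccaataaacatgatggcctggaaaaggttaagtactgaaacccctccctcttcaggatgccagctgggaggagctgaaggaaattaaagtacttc

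*Cldn5* held 1 GC box, and *Flt1* held 3 with a TATA box at position -31 from the start. *Ly6c1* held a TATA box at -143 from its outer start, and the window of its other start held none. GGGCGG stood in 32.7% and TATAAA in 12.4% of the 32851 promoters of the table. The core of the interferon-stimulated response element (GAAA, any 2 bases, GAAA) stood in 2.98% and that of the gamma-activated site (TTC, any 3 bases, GAA) in 7.02%, on either strand and with overlaps allowed. None of the windows of the 6 members held either core, and neither did that of *Irf7*, an interferon-regulated gene.

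Per kilobase of exon, *Ly6c1* and *Ly6a* had the highest mean levels of the 10 genes in WT mice in each region and *Cdh5* the lowest. In WT prefrontal cortex the levels were 48.8 ± 3.26 (SD, n = 3) RPKM (CPM per kilobase of exon) for *Ly6c1*, 38.5 ± 11.1 for *Ly6a*, 28.7 ± 6.54 for *Cldn5* and 13.4 ± 1.81 for *Slco1a4*. *Tek* (5.43 ± 0.632), *Pecam1* (4.90 ± 1.06), *Flt1* (4.64 ± 0.281), *Pdgfrb* (3.89 ± 0.771), *Abcb1a* (2.93 ± 0.262) and *Cdh5* (1.56 ± 0.484) followed. *Ly6c1* and *Ly6a*, *Ly6a* and *Cldn5*, and each step from *Tek* to *Pdgfrb* differed by less than the larger SD of the pair. In WT cerebellum and striatum the first 5 genes stood in the same order, from *Ly6c1* at 35.1 ± 11.1 and 49.6 ± 10.9 RPKM to *Tek* at 5.14 ± 0.337 and 5.18 ± 0.383.

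None of the 10 genes passed the test between KI and WT mice in any region (edgeR's quasi-likelihood test, Benjamini-Hochberg adjusted p under 0.05 over all 16841 genes). Of all tested genes, 0.831% (cerebellum), 0.582% (striatum) and 0.107% (prefrontal cortex) were called. At an unadjusted p under 0.05, *Ly6a* passed in each region and *Cdh5* in the striatum, and DESeq2 called 1, 0 and 0 members. *Ly6a* was higher in every KI library than in any WT library of its region.

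**Figure D1:**
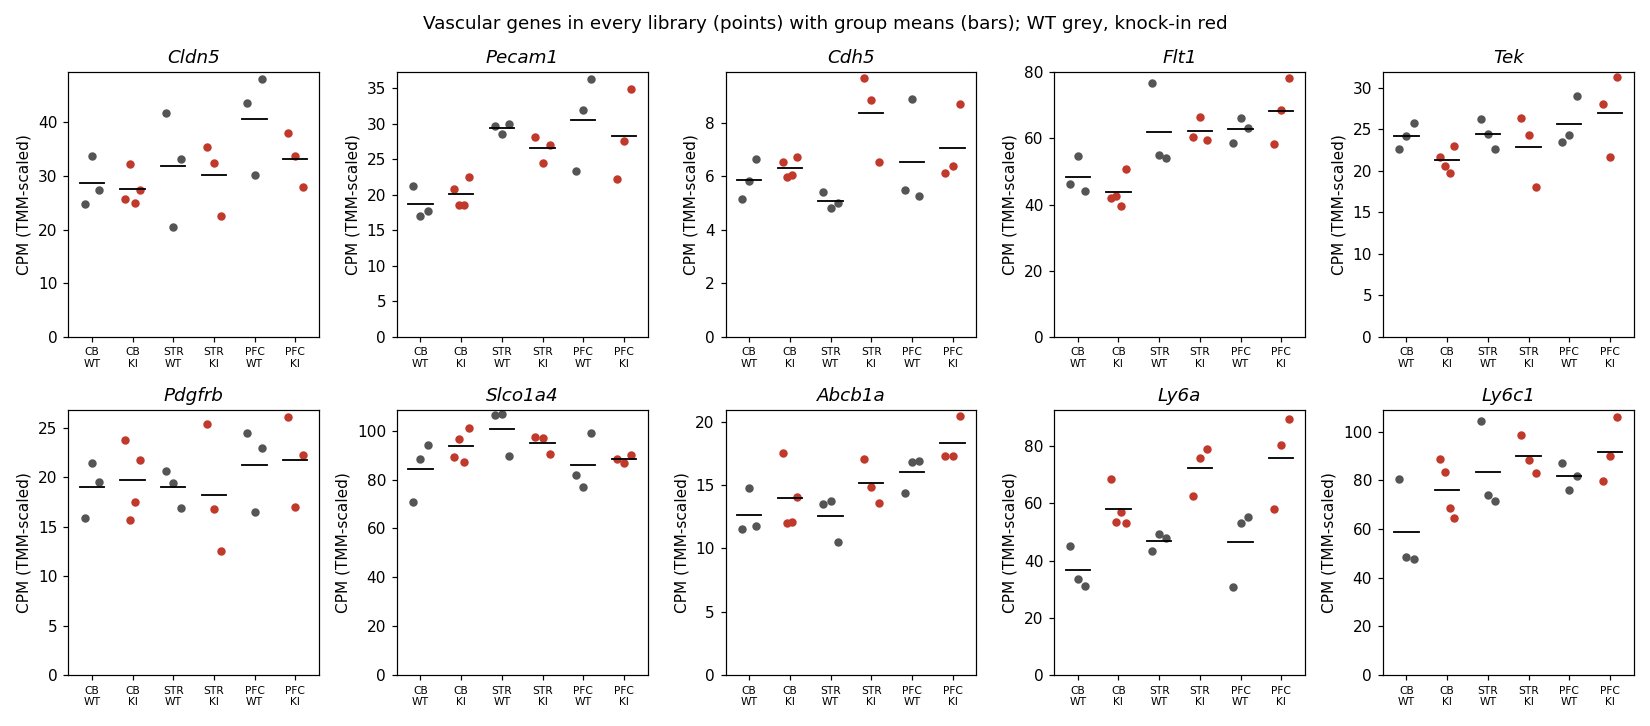
TMM-scaled CPM of the 10 vascular genes (vertical axis, from 0) in each of the 19 libraries, by region (CB, STR, PFC) and genotype (WT grey, KI red), with bars at group means. *Ly6a* KI libraries lie above the WT libraries in each region, whereas most other genes overlap.

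Of the junction and adhesion genes, *Cldn5* encodes the main claudin of endothelial tight junctions in the brain (GRCm38, chromosome 16, 18776847 to 18778262, plus strand). Its levels were 24.8, 33.7 and 27.3 CPM in WT cerebellum and 25.7, 32.3, 24.9 and 27.4 in KI cerebellum. In the striatum they were 41.7, 20.5 and 33.1 (WT) against 35.4, 32.4 and 22.5 (KI), and in the prefrontal cortex 43.6, 30.3 and 48.1 against 38.1, 33.6 and 28.0. The genotypes overlapped in every region. The log2 fold changes of KI over WT, here and below with their SE and in the order cerebellum, striatum, prefrontal cortex, were -0.05 ± 0.22, -0.08 ± 0.23 and -0.29 ± 0.23.

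*Pecam1* encodes an adhesion molecule of endothelial and some blood cells (chromosome 11, 106654217 to 106750628, minus strand). It was at 29.7, 28.5 and 30.0 CPM in WT striatum and at 28.1, 24.4 and 27.0 in KI striatum, so every KI library was below every WT library. The log2 fold change was -0.15 ± 0.16 (edgeR adjusted p = 0.901). In the cerebellum *Pecam1* was at 21.3, 17.0 and 17.7 CPM in WT and 20.8, 18.6, 18.5 and 22.5 in KI libraries, and in the prefrontal cortex at 23.4, 32.0 and 36.3 and 22.2, 27.5 and 34.9, where the groups overlapped.

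*Cdh5* encodes VE-cadherin, the cadherin of endothelial adherens junctions (chromosome 8, 104101625 to 104144511, plus strand), and had the fewest reads of the 10. In the striatum it was at 5.41, 4.83 and 5.02 CPM in WT libraries and at 9.67, 8.87 and 6.54 in KI libraries. The KI libraries lay above the WT libraries without overlap. The log2 fold change was 0.71 ± 0.21 (95% interval 0.27 to 1.16), with an unadjusted p = 0.00377 and an adjusted p = 0.231 in edgeR's quasi-likelihood test and 0.120 in DESeq2. Over 14 alternative settings it ranged from 0.60 to 0.86, with an adjusted p of 0.120 to 0.629, and it was 0.76 ± 0.25 (adjusted p = 0.437) without STR WT 1 and the other libraries with *Ly6c2* reads.

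In the cerebellum and the prefrontal cortex the log2 fold change of *Cdh5* was 0.11 ± 0.20 and 0.11 ± 0.21. The cerebellar effect minus the striatal one was -0.61 ± 0.29 and the striatal minus the prefrontal one 0.61 ± 0.30 (edgeR adjusted p = 0.742 and 1).

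Summed levels of red blood cell and mural genes also differed between these libraries. The 6 red blood cell genes summed to 537, 282 and 219.9 CPM in the KI striatal libraries, in the order given for *Cdh5*, and to 227, 216 and 178 in the WT ones. The 16 mural genes summed to 293 to 304 CPM in KI and 315 to 339 in WT striatum, and the 27 endothelial genes to 1078 to 1153 and 976 to 1233. Their part in the *Cdh5* difference was not tested. The first KI striatal library was the highest of its group for 7 of the 8 members other than the Ly6 genes, and the third was the lowest for 7.

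Among the receptors, *Flt1* encodes a receptor for VEGF-A, VEGF-B and placental growth factor (chromosome 5, 147561604 to 147726011, minus strand). It was at 48.3 ± 5.54 CPM in WT (SD, n = 3) and 43.7 ± 4.84 in KI cerebellum (n = 4), at 61.9 ± 12.8 and 62.2 ± 3.83 in the striatum, and at 62.7 ± 3.79 and 68.3 ± 9.95 in the prefrontal cortex. The log2 fold changes were -0.14 ± 0.13, 0.00 ± 0.14 and 0.12 ± 0.14. The WT striatal libraries were at 76.7, 54.9 and 54.2 CPM, and without the first of them the striatal log2 fold change was 0.19.

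*Tek* encodes TIE2, the angiopoietin receptor that keeps vessels stable (chromosome 4, 94739289 to 94874976, plus strand). In the cerebellum it was at 22.6, 24.2 and 25.8 CPM in WT and at 21.6, 20.6, 19.8 and 23.0 in KI libraries. A single KI library lay above the lowest WT library, and the fold changes over the 3 regions were -0.19 ± 0.14, -0.09 ± 0.15 and 0.07 ± 0.15 on the log2 scale.

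*Pdgfrb*, the only pericyte gene of the 10, encodes the receptor through which endothelial PDGF-B holds pericytes on the vessel (chromosome 18, 61045150 to 61085061, plus strand). Its WT means were 19.0 ± 2.85, 19.0 ± 1.90 and 21.3 ± 4.22 CPM in cerebellum, striatum and prefrontal cortex, and its KI means were 19.7 ± 3.75, 18.3 ± 6.55 and 21.8 ± 4.57. The log2 fold changes of 0.05 ± 0.22, -0.06 ± 0.24 and 0.04 ± 0.24 were all smaller than their errors. The KI striatal libraries, at 25.4, 16.8 and 12.6 CPM, had the largest SD of the 6 groups.

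The ligands of these receptors belong to a list of 12 vascular growth factors, none of which was called in any region. *Vegfa* was at 0.03 ± 0.09, -0.09 ± 0.09 and -0.08 ± 0.09, *Vegfb* at 0.07 ± 0.08, 0.09 ± 0.09 and -0.14 ± 0.08 and *Pdgfb* at -0.20 ± 0.19, -0.02 ± 0.19 and 0.06 ± 0.18 on the log2 scale, none of them past the test. *Pgf* was at 0.40 ± 0.33, 0.22 ± 0.35 and -0.17 ± 0.35, with wider errors. *Angpt2*, a TIE2 ligand made by endothelial cells, was at 2.67 ± 0.145 CPM in WT and 4.21 ± 0.667 in KI cerebellum, a log2 difference of 0.65 ± 0.22 (edgeR adjusted p = 0.250). *Angpt1*, the activating ligand, was at 13.3 ± 1.70 CPM in WT and 24.1 ± 3.95 in KI cerebellum, a log2 difference of 0.86 ± 0.39 (edgeR adjusted p = 0.463). For both TIE2 ligands the KI cerebellar libraries lay above the WT ones without overlap, as 5.82% of all tested genes did. In the forebrain regions the KI means of both were below the WT means. *Angpt2* was at 4.11 ± 0.489 CPM in WT and 3.44 ± 0.262 in KI striatum, and at 3.49 ± 0.198 and 2.73 ± 1.04 in the prefrontal cortex. *Angpt1* was at 2.16 ± 1.74 and 1.98 ± 0.605 in the striatum, and at 7.43 ± 2.88 and 6.30 ± 3.78 in the prefrontal cortex.

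Both transporters sit in the endothelial membrane. *Slco1a4* encodes an organic anion transporter (chromosome 6, 141805440 to 141856199, minus strand). Its levels were 70.9, 88.4 and 94.0 CPM in WT and 89.1, 96.8, 87.3 and 101 in KI cerebellum, 106, 107 and 89.5 and 97.6, 97.2 and 90.4 in the striatum, and 81.8, 77.1 and 99.2 and 88.4, 87.0 and 90.0 in the prefrontal cortex. The genotypes overlapped throughout, with log2 fold changes of 0.15 ± 0.10, -0.08 ± 0.11 and 0.04 ± 0.11, and the 95% intervals lay between -0.31 and 0.36.

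*Abcb1a* encodes P-glycoprotein, the efflux pump that keeps many drugs out of the brain (chromosome 5, 8660077 to 8748575, plus strand). It was at 14.4, 16.8 and 16.9 CPM in WT and at 17.3, 17.3 and 20.4 in KI prefrontal cortex, where the groups did not overlap. The gap between the highest WT and the lowest KI library was narrow, and the log2 fold change was 0.19 ± 0.16 (edgeR adjusted p = 0.931). In cerebellum and striatum it was 0.14 ± 0.15 and 0.27 ± 0.16, with overlapping libraries.

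*Ly6a* lies on the minus strand of chromosome 15 (74994877 to 74998031). In the cerebellum it was at 45.2, 33.6 and 31.0 CPM in the WT libraries and at 68.4, 53.4, 56.8 and 53.1 in the KI libraries. In the striatum the WT libraries were at 43.3, 49.3 and 48.0 and the KI libraries at 62.5, 75.6 and 79.0. In the prefrontal cortex the values were 30.9, 53.0 and 55.1 for WT and 57.9, 80.3 and 89.6 for KI. All KI libraries lay above all WT libraries of the same region, with the narrowest gap in the prefrontal cortex.

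*Ly6a* had a cerebellar log2 fold change of 0.66 ± 0.19 (95% interval 0.26 to 1.06), a striatal one of 0.63 ± 0.20 (0.20 to 1.05) and a prefrontal one of 0.71 ± 0.20 (0.29 to 1.13). The unadjusted p of edgeR's quasi-likelihood test was 0.00303, 0.00630 and 0.00261, and the p adjusted over all tested genes was 0.149, 0.281 and 0.495, past the threshold in no region. The call depended on the setting. DESeq2 gave an adjusted p of 0.0418 in the cerebellum and 0.134 and 0.131 in striatum and prefrontal cortex. edgeR with a covariate for sex (*Xist* reads over Y-linked reads) gave log2 fold changes of 0.74, 0.77 and 0.86, with an adjusted p of 0.0147, 0.0222 and 0.0293. Over all alternatives run, the adjusted p ranged from 0.00759 to 0.520, from 0.0196 to 0.725 and from 0.0231 to 0.999 in the same order of regions. Among libraries of the same *Xist* class, each with 1 or 2 libraries a genotype, the KI mean was 1.59 to 2.24 times the WT mean in all 6 combinations of region and class. The class with high *Xist* held 2 WT and 2 KI libraries in the cerebellum, and 2 WT and 1 KI in each forebrain region. The class with low *Xist* held 1 WT and 2 KI libraries in each region, so sex and genotype were not balanced. In the class with low *Xist*, the only WT library was STR WT 1 in the striatum (ratio 1.60) and PFC WT 1 in the prefrontal cortex (2.24). Both stood apart in *Ly6c2* reads and had the lowest *Ly6a* CPM of their groups. The fit with the sex covariate was not run without them.

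Without overlap and with KI higher, 1 of the 10 members stood in the cerebellum, where 5.82% of all tested genes did so, 2 stood in the striatum (5.65%) and there were 2 for the prefrontal cortex (4.38%). With KI lower there were 0, 1 and 0 members, against 6.47%, 8.46% and 4.32% of all genes. *Ly6a* was the only member higher without overlap in all 3 regions, as 0.445% of the tested genes were. Striatal and prefrontal libraries with the same number resembled each other, so these regions are not independent.

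*Ly6c1* lies near *Ly6a* on the same strand (75044018 to 75048830). In the cerebellum it was at 80.5, 48.5 and 47.8 CPM in WT and at 88.8, 83.3, 68.5 and 64.4 in KI libraries. In the striatum it was at 104, 73.9 and 71.4 against 98.6, 88.3 and 83.1, and in the prefrontal cortex at 87.1, 76.2 and 82.0 against 79.7, 89.8 and 106. The genotypes overlapped in each region, and the first WT library was the highest of its group each time. KI and WT differed by 0.37 ± 0.18, 0.11 ± 0.19 and 0.17 ± 0.19 on the log2 scale (edgeR adjusted p = 0.503, 0.950 and 0.969).

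**Figure D2:**
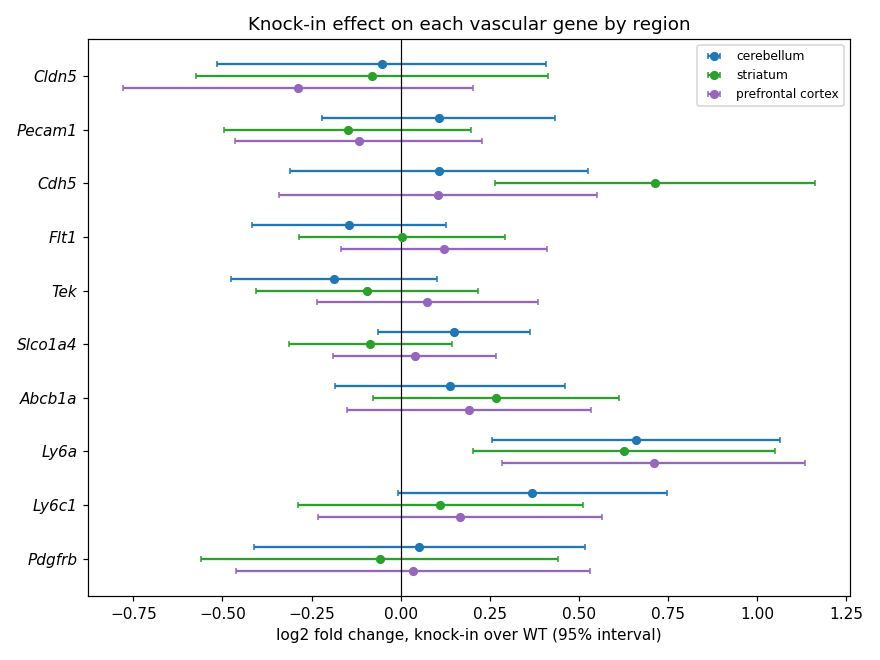
Log2 fold change of KI over WT (horizontal axis) for each of the 10 genes in cerebellum, striatum and prefrontal cortex, with 95% intervals from edgeR's quasi-likelihood fit. The intervals of *Ly6a* in the 3 regions and of *Cdh5* in the striatum lie above 0, and all others include 0.

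Per library, the mean log2 CPM of the other 8 members was 4.52 ± 0.11 in WT (SD) and 4.54 ± 0.11 in KI cerebellum, 4.67 ± 0.14 and 4.72 ± 0.21 in the striatum, and 4.80 ± 0.10 and 4.83 ± 0.12 in the prefrontal cortex. The genotypes differed by less than the SD in each region. The median log2 fold change of the 8 was 0.08, -0.07 and 0.06, beside 0.01, -0.01 and 0.00 over all tested genes. Apart from *Cdh5* in the striatum, the 95% intervals of the 8 lay between -0.78 and 0.61 on the log2 scale, which is as close as these libraries bound them.

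*Ly6a* minus the mean of the 8, in log2 CPM, was 0.66 ± 0.38 in WT and 1.31 ± 0.18 in KI cerebellum, 0.89 ± 0.24 and 1.45 ± 0.37 in the striatum, and 0.69 ± 0.40 and 1.40 ± 0.29 in the prefrontal cortex. KI libraries were above WT libraries without overlap in striatum and prefrontal cortex, and in the cerebellum the lowest KI library fell just below the highest WT library. STR WT 1 (0.61) and PFC WT 1 (0.23), which stood apart in *Ly6c2* reads, were the lowest WT libraries of their regions. The other WT libraries were at 1.04 and 1.01 in the striatum and at 0.96 and 0.87 in the prefrontal cortex. For *Ly6c1* the same difference was 1.32 ± 0.53 and 1.70 ± 0.25, 1.70 ± 0.16 and 1.76 ± 0.10, and 1.55 ± 0.15 and 1.69 ± 0.14, with overlap in each region. The mean of both Ly6 genes relative to the 8 was higher in KI libraries by 0.52, 0.32 and 0.42. These scores have no test, since the genes were chosen with results known.

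**Figure D3:**
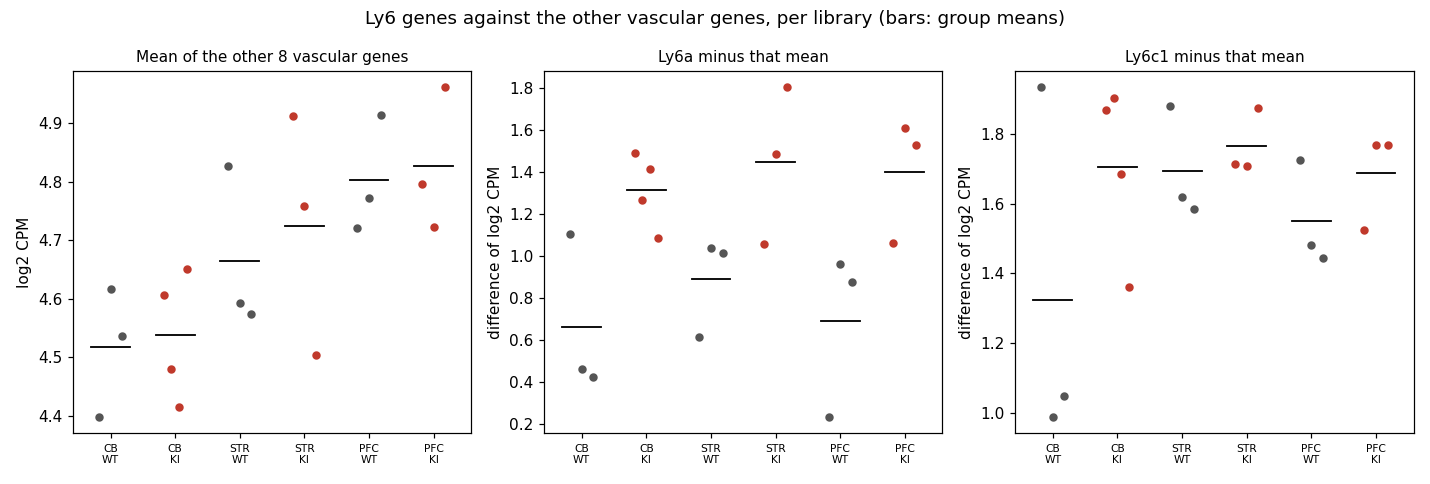
Per library, the mean log2 CPM of the 8 vascular genes other than *Ly6a* and *Ly6c1* (left), and *Ly6a* (middle) and *Ly6c1* (right) minus that mean, by region and genotype with bars at group means; axes do not start at 0. The left panel shows overlapping genotypes in each region, and the middle panel shows KI libraries mostly above WT libraries.

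A group of 3 libraries stood apart at the Ly6 locus. *Ly6c2* had 89 reads in CB KI 2, 85 in STR WT 1 and 82 in PFC WT 1, and at most 9 in each of the other 16 libraries. STR WT 1 and PFC WT 1 also had the lowest *Ly6a* and the highest *Ly6c1* CPM of their groups. Without these 3 libraries, an alternative chosen after seeing the data, *Ly6a* differed by 0.70 ± 0.17, 0.57 ± 0.19 and 0.49 ± 0.19 (edgeR adjusted p = 0.102, 0.432 and 0.570), and *Ly6c1* by 0.33 ± 0.18, 0.31 ± 0.20 and 0.21 ± 0.20. *Ly6a* was higher in KI mice with and without them. For *Ly6c2* no fold change is given, because 1 library made up most of its reads in each region.

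**Figure D4:**
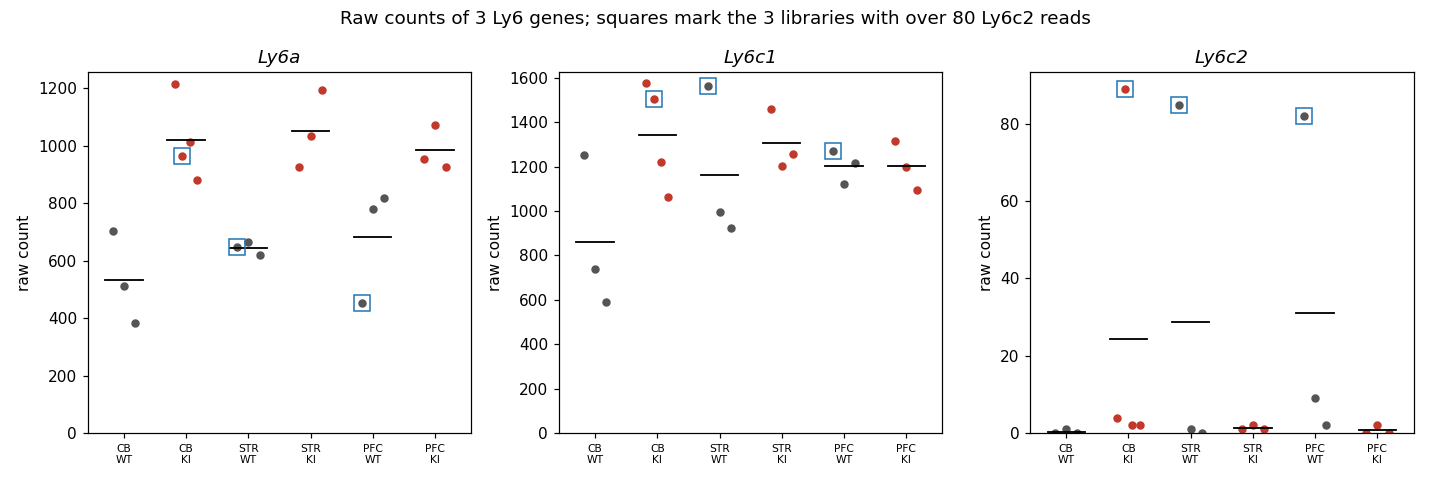
Raw read counts of *Ly6a*, *Ly6c1* and *Ly6c2* (vertical axes from 0) in each library by region and genotype, with bars at group means and squares around the 3 libraries with 82 to 89 *Ly6c2* reads. In the other 16 libraries *Ly6c2* had at most 9 reads.

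*Ly6e*, a further interferon-responsive gene of the family, had log2 fold changes of 0.24 ± 0.17, 0.34 ± 0.18 and 0.26 ± 0.18, none of them called. Of the 18 listed Ly6 family genes, 17 were in the table and 9 were tested, and edgeR called none in any region.

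Likeness of pattern to a member was measured over all tested genes. Over the 19 libraries, after the WT mean of each region was taken off, log2 CPM of *Ly6a* correlated best with *H2-K1* (Pearson r = 0.920, Spearman rho = 0.939), *Nlrc5* (0.906 and 0.932) and *H2-Q7* (0.904 and 0.939). *H2-K1* and *H2-Q7* encode MHC class I molecules and *Nlrc5* encodes their transcriptional activator. *Ly6c1* was most like *Fam20a* (Pearson r = 0.828), *Sec23b* (0.809) and *H2-Ob* (0.803), and *Cldn5* was most like *Prkab1* (0.851), *Cdh22* (0.831) and *Sox12* (0.823). These are descriptions over libraries that share genotype, region and scaling, picked from all tested genes.

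The interferon-stimulated list holds none of the 10 members. Of its 20 genes, edgeR called 17 higher and 0 lower in the cerebellum, 18 and 0 in the striatum and 10 and 0 in the prefrontal cortex. Over all 16841 tested genes these counts were 87 and 53, 66 and 32, and 15 and 3. Above 0 were 19, 20 and 20 of the 20, with median log2 fold changes between 1.68 and 2.27. *Irf9*, a subunit of the interferon-activated transcription complex, rose by 2.33 ± 0.18, 2.03 ± 0.18 and 1.47 ± 0.18 on the log2 scale. *Irf7* rose by 3.16 ± 0.36, 3.10 ± 0.37 and 2.25 ± 0.36 and *Rtp4* by 2.74 ± 0.25, 3.15 ± 0.26 and 1.86 ± 0.25. *Oasl2* rose by 2.85 ± 0.31, 2.92 ± 0.31 and 2.32 ± 0.31, and *Usp18* and *Ifi27l2a* by 3.67 ± 0.39 and 4.46 ± 0.50 in the cerebellum and *Ifit3* by 2.86 ± 0.31 in the striatum. KI libraries lay above WT libraries without overlap in all 3 regions for 16 of the 20. *Ly6a*, with log2 fold changes of 0.63 to 0.71, was below *Irf9*, *Irf7* and *Rtp4* in each region. It was above the lowest gene of the list, which was at -0.22, 0.05 and 0.14.

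Of 12 microglial genes edgeR called 10 higher in the cerebellum (median 0.89), and all 12 were above 0 there. Among those called were *C1qa* at 1.28 ± 0.14, *Cd68* at 1.17 ± 0.15, *C1qc* at 0.96 ± 0.14 and *Tyrobp* at 1.18 ± 0.19. None of the 12 passed the edgeR test in the striatum or the prefrontal cortex (medians 0.15 and -0.09). Their summed level was 167 to 173 CPM in WT and 255 to 344 in KI cerebellum, 785 to 906 and 809 to 913 in the striatum, and 716 to 783 and 652 to 777 in the prefrontal cortex. Of 13 leukocyte genes 5 passed the filter, and all 13 summed to 2.91 to 4.56 and 4.17 to 6.49 CPM in the cerebellum, 3.42 to 4.47 and 5.14 to 6.67 in the striatum, and 3.01 to 23.6 and 4.06 to 7.16 in the prefrontal cortex. Their part in the *Ly6a* difference was not tested. Of 8 astrocyte genes, *Aldoc* fell in the cerebellum, at -0.62 ± 0.11 on the log2 scale (edgeR adjusted p = 0.00912). The other 7 were above 0 there without being called, and the list median was 0.13.

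**Figure D5:**
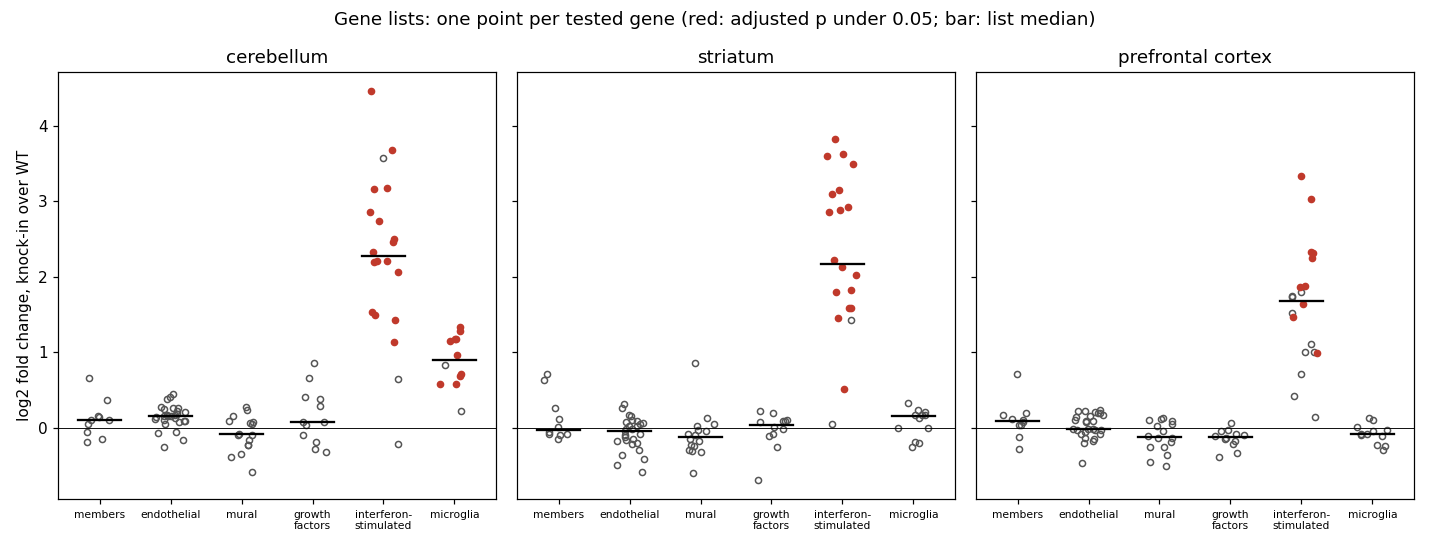
Log2 fold change of KI over WT (vertical axis) for every tested gene of 6 lists in each region, with red points for edgeR adjusted p under 0.05 and bars at list medians. Red points appear in the interferon-stimulated list in every region and in the microglial list in the cerebellum, and none in the 4 vascular lists.

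Of 27 further endothelial and blood-brain barrier genes, 0 passed the edgeR test in any region, at medians of 0.16, -0.05 and -0.01, and of 16 mural genes, 0 passed, at medians of -0.09, -0.12 and -0.12. Above 0 were 23, 11 and 13 of the 27 endothelial genes, beside 8676, 8162 and 8490 of all 16841 tested genes. In the cerebellum the 27 summed to 768 to 907 CPM in WT and 784 to 991 in KI libraries, with overlap. At an unadjusted p under 0.05 there were 0, 1 and 1 endothelial and 1, 1 and 1 mural genes, and DESeq2 called none of either. *Slc2a1*, the glucose transporter of the barrier, was at 0.17 ± 0.26, 0.02 ± 0.28 and 0.20 ± 0.28 on the log2 scale, *Mfsd2a*, its lipid transporter, at 0.16 ± 0.25, 0.07 ± 0.26 and 0.09 ± 0.26, and *Ocln*, a tight junction gene, at 0.16 ± 0.16, -0.01 ± 0.17 and -0.02 ± 0.17. The VEGF receptor *Kdr* was at 0.26 ± 0.29, -0.58 ± 0.31 and -0.06 ± 0.31 and the TIE2 partner *Tie1* at 0.26 ± 0.15, -0.17 ± 0.16 and -0.21 ± 0.16. The mural genes *Rgs5*, *Kcnj8* and *Cspg4* were at -0.16 ± 0.09, -0.18 ± 0.10 and -0.13 ± 0.10, at -0.22 ± 0.19, 0.03 ± 0.20 and -0.26 ± 0.20 and at 0.16 ± 0.30, 0.13 ± 0.31 and 0.11 ± 0.30.

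Of the 10 listed vascular activation genes 6 were tested, and edgeR called none in any region. Their median log2 fold changes were 0.25, 0.15 and -0.02. In the cerebellum 4 of the 6 were above 0, with a range from -0.86 to 0.94, 4 had an unadjusted p under 0.05 and DESeq2 called 1. In striatum and prefrontal cortex 4 and 3 were above 0, with ranges from -0.55 to 2.72 and from -0.68 to 0.54. *Plvap*, the lowest of the 6 in the cerebellum, *Cd274* and *Acta2* were chosen after their values were seen. *Cd274* had few reads and higher means in KI libraries. It was at 1.25 ± 0.532 CPM in WT and 2.41 ± 0.992 in KI cerebellum, 1.79 ± 0.717 and 3.08 ± 0.605 in the striatum, and 2.51 ± 0.682 and 3.71 ± 1.92 in the prefrontal cortex. *Plvap*, a gene of fenestrated endothelium, was at 25.3 ± 2.36 CPM in WT (SD, n = 3) and 13.9 ± 1.99 in KI cerebellum (n = 4). The log2 fold changes were -0.86 ± 0.23, -0.55 ± 0.25 and -0.52 ± 0.26 (edgeR adjusted p = 0.110, 0.586 and 0.868, DESeq2 0.0203 in the cerebellum). *Acta2*, the smooth muscle actin, was at -0.59 ± 0.21, -0.60 ± 0.22 and 0.02 ± 0.21 (edgeR adjusted p = 0.284, 0.388 and 0.999).

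The KI effect on the 10 genes was also compared between regions. None of the 30 differences was called and none had an unadjusted p under 0.05, where 0.0119% of all genes were called between cerebellum and striatum, 0.0178% between cerebellum and prefrontal cortex, and 0% between striatum and prefrontal cortex. For *Ly6a* the differences were 0.03 ± 0.28, -0.05 ± 0.28 and -0.08 ± 0.28, with 95% intervals between -0.68 and 0.61. Regional differences within those bounds remain compatible with these values.

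In WT mice, *Pecam1*, *Flt1* and *Ly6c1* were lower in the cerebellum than in either forebrain region. These were 3 of 10 members in each comparison, where 56.5% (against striatum) and 52% (against prefrontal cortex) of all tested genes were called in either direction. *Pecam1* had log2 differences of -0.66 ± 0.17 against the striatum and -0.71 ± 0.17 against the prefrontal cortex (edgeR adjusted p = 0.00286 and 0.00167). Its WT cerebellar libraries, at 17.0 to 21.3 CPM, lay below all WT libraries of both other regions (23.4 to 36.3). *Flt1* was at -0.36 ± 0.14 and -0.38 ± 0.14 (adjusted p = 0.0347 and 0.0296), and *Ly6c1* at -0.50 ± 0.19 and -0.47 ± 0.19 (0.0347 and 0.0476).

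The calls of *Flt1* and *Ly6c1* were lost when single libraries were left out, while both *Pecam1* calls held under every alternative run. Without STR WT 1, *Flt1* differed from the striatum by -0.19 (edgeR adjusted p = 0.228) and *Ly6c1* by -0.32 (0.189). Without CB WT 3, the adjusted p of *Flt1* was 0.125 against the striatum and 0.112 against the prefrontal cortex, and that of *Ly6c1* 0.152 and 0.193. Without CB WT 2, *Ly6c1* was at 0.147 and 0.188, and without CB WT 1, *Flt1* was at 0.0966 and 0.0877. Against the prefrontal cortex, *Ly6c1* was at 0.122, 0.0576 and 0.0844 without PFC WT 1, 2 and 3, and *Flt1* at 0.0886 and 0.0610 without PFC WT 2 and 3. Without the 3 libraries with *Ly6c2* reads, *Flt1* differed from the striatum by -0.18 (adjusted p = 0.293), and *Ly6c1* by -0.30 and, from the prefrontal cortex, -0.42 (0.235 and 0.105).

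Between WT striatum and WT prefrontal cortex edgeR called none of the 10 genes, where 30.5% of all tested genes were called. The log2 differences lay between -0.36 (*Cdh5*) and 0.23 (*Slco1a4*), 2 had an unadjusted p under 0.05, and DESeq2 called 0. With genotype and number as a block across these regions, *Cldn5* was called, at -0.39 (edgeR adjusted p = 0.0432, against 0.279 without the block). Leaving out PFC WT 3 or STR WT 3 called *Slco1a4*, at 0.34 and 0.32 (adjusted p = 0.0272 and 0.0474). In WT cerebellum against WT striatum, where 56.5% of all tested genes were called (4830 lower and 4682 higher), 14 of the 27 endothelial genes were lower and 1 higher, and 4 of the 16 mural genes were lower and 1 higher. Against WT prefrontal cortex, where 52% of all tested genes were called (4528 lower and 4224 higher), the counts were 13 lower and 1 higher for the endothelial and 3 lower and 0 higher for the mural genes.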

How the data were processed

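RNA from cerebellum, striatum and prefrontal cortex was extracted with Trizol and made into full-length cDNA libraries (SMART-Seq v4, Nextera XT). The submitters' processing notes name bcl2fastq 2.17.1.14, STAR 2.5.2b, HTSeq, DESeq2 1.10.1 and GRCm38.p3, without roles, and the methods name Cufflinks and Cuffdiff. The authors deposited raw read counts per Ensembl gene, and a second table (unit: signal) in which each library's counts were scaled by its size factor.

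Groups came from the sample titles. GENCODE M21 named 40254 of 41128 identifiers. In R 4.3.3, edgeR 4.0.16 was run with filterByExpr, TMM and a quasi-likelihood fit of all 19 libraries (6 group means, 13 residual degrees of freedom, biological coefficient of variation 0.191), and p-values were adjusted over 16841 genes at 0.05. Log2 CPM used a prior count of 2, and RPKM the summed exon length. The steps were tested on simulated data.

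Library totals, 10639110 to 17431284 reads, set the counting error, and without molecular identifiers a read is not a molecule. Labels do not name animals, so p-values measure the spread between these libraries. No pair within a group matched within sampling noise (chi-square per degree of freedom at least 4.75). Deviations of same-numbered striatal and prefrontal libraries from their group means correlated at 0.233 to 0.368 across genes in all 6 pairs, and each pair shared its *Xist* class, so the numbers were taken to pair those regions.

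Alternatives were DESeq2 1.42.0, its size factors, other filters, regions alone, a replicate block, a sex covariate, the normalized table, each library left out and, added after seeing the data, 3 libraries left out together and a block across striatum and prefrontal cortex. The members and lists were chosen with earlier results of these data known. Named are all members, up to 5 called genes per list and region, a set of relatives, receptors, ligands, barrier, mural and interferon genes, and the 3 genes most like *Ly6a*, *Ly6c1* and *Cldn5*.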

Additional observations from a re-analysis of the deposited data

Results flagged for a closer look

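*Ly6c2* in the KI cerebellum was the only one of 12 genes examined with a library far from the others by Dixon's test. CB KI 2 was at 4.93 CPM, whereas the other 3 KI libraries were at 0.225, 0.112 and 0.121, and the gap to the nearest library made up 0.977 of the whole range. By chance such a test picks about 1 in 20 groups. The groups with STR WT 1 (5.68 CPM) and PFC WT 1 (5.62 CPM) had 3 libraries and were not tested.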

How the results depend on the processing

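The number of members called for KI against WT, 0 in each region, was 1 (*Ly6a*) with the *Xist* covariate in all 3 regions and 1 with DESeq2 in the cerebellum. With a replicate block within regions it was 1 (*Ly6a*) in each (adjusted p = 0.00759, 0.0196 and 0.0231 by edgeR). Deviations of same-numbered KI and WT libraries correlated at -0.245 to 0.172. Pairs with unlike numbers were not compared, so these values cannot settle whether a number marks related KI and WT libraries. The block also called 5 members between WT cerebellum and striatum in place of 3, and took *Pdgfrb* in the cerebellum to -0.011. The block across striatum and prefrontal cortex called 1 member between them in WT in place of 0. With the *Xist* covariate *Flt1* in the striatum was at -0.011 and *Pdgfrb* in the prefrontal cortex at -0.016. Without the 3 libraries with *Ly6c2* reads, calls between WT cerebellum and striatum went from 3 to 1, and the log2 fold changes of *Cldn5* (0.17) and *Pdgfrb* (0.0039) in the striatum and of *Cdh5* (-0.0063) in the prefrontal cortex changed sign. With 1 library left out, WT calls ranged from 1 to 4 (cerebellum against striatum), 1 to 3 (against prefrontal cortex) and 0 to 1 (striatum against prefrontal cortex). Log2 fold changes near 0 crossed it, in the cerebellum *Pdgfrb* (-0.060 to 0.15) and *Cldn5* (-0.15 to 0.084), in the striatum *Flt1* (-0.080 to 0.19), *Cldn5* (-0.31 to 0.17), *Tek* (-0.21 to 0.051) and *Pdgfrb* (-0.38 to 0.15), and in the prefrontal cortex *Pecam1* (-0.30 to 0.030), *Pdgfrb* (-0.12 to 0.18), *Cdh5* (-0.066 to 0.39), *Tek* (-0.041 to 0.20) and *Slco1a4* (-0.032 to 0.16). *Ly6a* was above 0 under every alternative run, at 0.56 to 0.84, 0.56 to 0.77 and 0.49 to 0.87 in cerebellum, striatum and prefrontal cortex. The cause of these changes was not tested. *Cdh5* had the fewest reads of the members, 65 to 143 a library.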
